A study of Mus musculus with 27 samples.

Results

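Brain was compared with liver for the transcripts of 573 mouse genes on a custom 1-colour Affymetrix array. Its probe sets cover glycogenes, meaning genes for enzymes that make or break down glycans, for proteins that bear them and for lectins that bind them, as well as genes of cytokines, chemokines and growth factors. The comparison used 6 of the 27 arrays of the study: 3 arrays of brain and 3 arrays of liver, chosen by their tissue labels, while the other 21 arrays came from 7 further tissues with 3 arrays each. Both tissues came from male wild-type mice of the inbred strain C57BL/6, 6 to 8 weeks old. No treatment was named in the labels beyond the wild-type genotype, and whole tissue was used, so that each array averages over all cell types of the organ. Total RNA was labelled with biotin. Whether the arrays of 1 tissue represent different mice is not stated, and the p-values therefore reflect array-to-array spread, which may be technical. That spread, and each standard error (SE) below, was estimated within tissues over all 27 arrays. It is not the spread of the 6 brain and liver arrays alone. In whole tissue, fewer cells of a type and less RNA per cell cannot be told apart.

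Glycans are assembled by glycosyltransferases in the endoplasmic reticulum and Golgi from activated sugar donors, and are trimmed and capped there by further enzymes. Brain is known for gangliosides, sialic acid-bearing glycolipids of neuronal membranes, and for galactosylceramide, the main glycolipid of myelin. Liver secretes most plasma glycoproteins, clears glycoproteins through lectin receptors, and conjugates hormones, bilirubin and drugs to glucuronic acid.

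Values are intensities as deposited, on a linear scale, and 1 probe set stood for each gene. A gene was called when limma's adjusted p was under 0.05 and its log2 difference, brain minus liver, was at least 1 in either direction. Human probe sets on the same arrays served as a rough measure of non-specific signal. Their median intensity was 208 in brain and 212 in liver, 209.9 over both, with a 95th percentile of 581. A fold with a level under that median on 1 side is therefore a ratio of signals and not an exact ratio of transcripts. Across genes, log2 values correlated at 0.931 to 0.984 between brain arrays, at 0.976 to 0.982 between liver arrays and at 0.583 to 0.630 between the tissues. Brain replicate 2 stood somewhat apart, with correlations of 0.931 and 0.945 against 0.984 between the other brain arrays, and with 16 values under 16 over all probe sets, against 8 and 6 on the other brain arrays. No arrays held identical values. Precision here is limited by having 3 arrays per tissue.

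Of the 573 genes, 45 were called higher in brain (7.85%) and 47 were called lower in brain (8.2%), 92 in all (16.1%). Counts of called members in each list below are to be read beside these shares. The larger differences lay on the lower side: 17 genes were at least 4-fold lower in brain and 11 at least 4-fold higher. The median difference over all genes was -0.03 on the log2 scale, and the median SD between arrays was 0.13 in brain and 0.12 in liver. In each called gene the 3 brain arrays and the 3 liver arrays did not overlap, which also held for 137 of all 573 genes upward (23.9%) and 167 downward (29.1%). A further 145 genes passed on the adjusted p with a difference under the threshold on size. Without brain replicate 2 the counts were 45 higher and 46 lower. Among the 36 pairs of tissues, brain and liver stood at rank 22 by number of called genes. The numbers ran from 24 for lymph node against spleen (4.19%) to 133 for brain against lymph node (23.2%), with a median of 96.

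**Figure D1:**
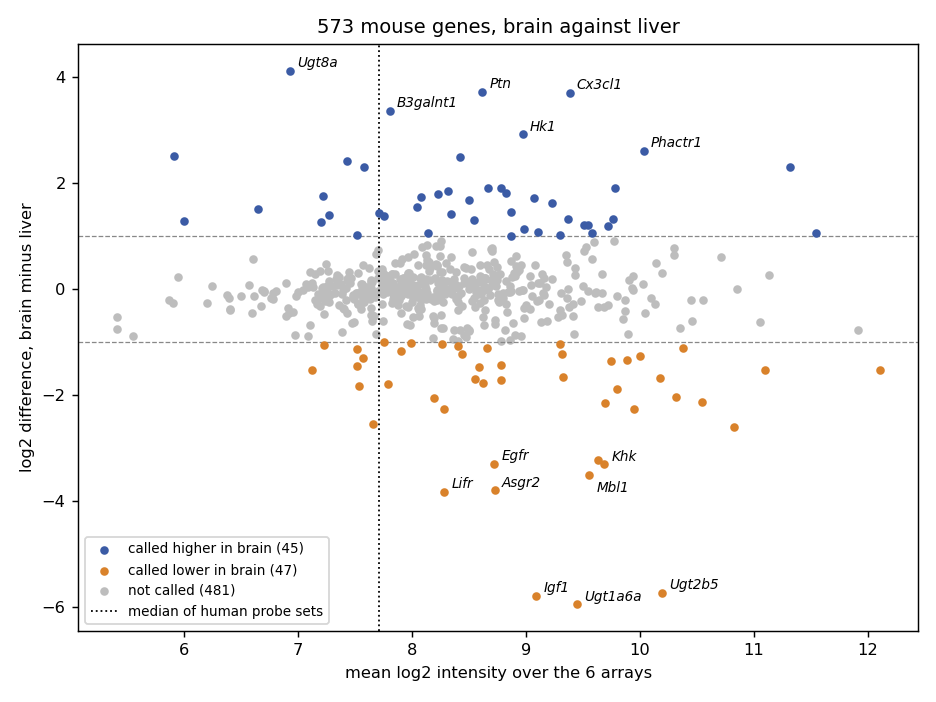
Log2 difference, brain minus liver, of each of the 573 mouse genes (vertical) against its mean log2 intensity over the 6 arrays (horizontal), with dashed lines at the threshold of 1 and a dotted line at the human probe set median. The 45 genes called higher in brain reach 4.11 (Ugt8a), and the 47 called lower reach -5.94 (Ugt1a6a).

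Of 3 measured enzymes of glucuronidation, which attaches glucuronic acid to bilirubin, hormones and drugs for export, 2 were called lower in brain. Ugt1a6a, a UDP-glucuronosyltransferase of phenols, had intensities of 84.1, 77.8 and 108 on the brain arrays, against 6842, 4278 and 5582 on the liver arrays. Every brain array was far below every liver array and under the human probe set median. The gene was 61.4-fold lower in brain (log2 difference -5.94 ± 0.24 SE, limma adjusted p = 3.14e-16). Ugt2b5, a UDP-glucuronosyltransferase of steroids and other lipophilic compounds, had 168, 155 and 159.8 in brain, against 8518, 6749.5 and 10882 in liver. It was 53.1-fold lower (log2 difference -5.73 ± 0.38 SE, limma adjusted p = 6.21e-12), again with no overlap. Members of both families are close in sequence, and a single probe set may bind several of them. The other measured gene of this kind, Ugt2a1, averaged 239 ± 23.7 in brain and 398 ± 24.2 in liver (SD, n = 3 each), a difference of -0.74 ± 0.15 that passed on p and not on size.

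Ugdh, Ugp2 and Khk, 3 enzymes of sugar metabolism, were also lower in brain. Ugdh oxidises UDP-glucose to UDP-glucuronic acid, the donor of these transferases and of glycosaminoglycan chains. Its intensities were 489, 358 and 519 in brain, against 2897, 1566 and 2212 in liver. The lowest liver array was still well above the highest brain array, and Ugdh was 4.80-fold lower in brain (log2 difference -2.26 ± 0.20 SE, limma adjusted p = 9.34e-10). Ugp2, which makes UDP-glucose, had 1433, 1112 and 1343 in brain, against 4604, 2981 and 3784 in liver. It was 2.90-fold lower in brain (log2 difference -1.53 ± 0.18 SE, limma adjusted p = 1.92e-07). Khk, ketohexokinase, begins fructose breakdown in liver and is not on the route to UDP-glucuronic acid. It had 292, 214 and 289 in brain, against 3595, 1803 and 2683 in liver. The brain values lay close to the human probe set median, and Khk was 9.87-fold lower in brain (log2 difference -3.30 ± 0.17 SE, limma adjusted p = 9.29e-14).

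Promoters of 3 of these liver-side genes are shown because each holds the letters GTTAAT, the half-site of the element bound by HNF1, a transcription factor of hepatocytes. The stretches below run 5′ to 3′ on the plus strand, cover the 100 bases before the annotated start (RefSeq, GRCm38.p6), and carry the match in capitals, which reads ATTAAC where it lies on the minus strand. Igfbp1, a secreted binding protein of insulin-like growth factors made in hepatocytes, also holds the longer form of the element, and its capitals mark that form on the minus strand.
Ugt1a6a, chr1:88134709-88134808: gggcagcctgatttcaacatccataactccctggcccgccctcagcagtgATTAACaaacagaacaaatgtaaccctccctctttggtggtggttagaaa
Khk, chr5:30921459-30921558: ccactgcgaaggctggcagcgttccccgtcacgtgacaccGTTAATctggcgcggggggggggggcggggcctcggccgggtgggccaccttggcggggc
Igfbp1, chr11:7197687-7197786: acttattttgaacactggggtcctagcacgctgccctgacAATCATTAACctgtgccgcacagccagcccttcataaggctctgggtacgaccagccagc
The search covered both strands of windows from 250 bases before to 50 after each start. Among the called genes with a window, GTTAAT was present in 0 of the 38 genes higher in brain and in 4 of the 40 genes lower in brain: Egfr, Igfbp1, Khk and Ugt1a6a. It was present in 3.83% of the 444 array genes with a window and in 7.1% of all 32851 windows. The longer form was present in 0.399% of all windows and, among the called genes, in Igfbp1. For the RE1 element, bound by the repressor of neuronal genes REST, the left part TTCAGCACC was present in 0.371% of all windows and the right part in 0.137%, and both in 0 of the called genes. A match describes the letters of these windows and is not evidence of binding.

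Lectins of hepatocytes and of the liver's resident macrophages were among the genes lower in brain. Of 8 measured hepatic and soluble lectins, 4 were called lower and 0 higher, with a median of -1.28, against -0.03 over all genes. Asgr2, a subunit of the asialoglycoprotein receptor that clears desialylated glycoproteins from plasma, had 108, 145 and 93.9 in brain, against 1657, 1319 and 1785 in liver. All brain values lay under the human probe set median. Asgr2 was 13.9-fold lower in brain (log2 difference -3.79 ± 0.26 SE, limma adjusted p = 2.01e-11). Mbl1, a mannose-binding lectin of plasma that starts the lectin pathway of complement, had 236, 217 and 216 in brain, against 2694, 2738 and 2233 in liver. It was 11.4-fold lower (log2 difference -3.51 ± 0.10 SE, limma adjusted p = 7.01e-19). Mbl2, the second mannose-binding lectin, had 719, 758 and 738 in brain, against 6384, 3248 and 4336 in liver. Its brain values were above the 95th percentile of the human probe sets and close to the mean of the 7 other tissues (difference 0.0003), and it was 6.07-fold lower in brain than in liver (log2 difference -2.60 ± 0.14 SE, limma adjusted p = 2.19e-13). Clec4f, a galactose-binding lectin of Kupffer cells in mouse, had 134, 157 and 135 in brain, against 703, 647 and 703 in liver, and was 4.83-fold lower (log2 difference -2.27 ± 0.11 SE, limma adjusted p = 1.16e-14). The other members, Sftpd, Reg1, Reg2 and Reg3b, differed by -0.28 to 0.03 and were not called. Of 20 measured C-type lectin receptors of leukocytes, 1 was called: Mrc1, the mannose receptor of macrophages and sinusoidal endothelium, had 117, 50.1 and 99.6 in brain, against 610.4, 428 and 439.7 in liver. Brain replicate 2 was the lowest, the groups did not overlap, and Mrc1 was 5.83-fold lower in brain (log2 difference -2.54 ± 0.29 SE, limma adjusted p = 7.06e-08).

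Genes of the insulin-like growth factor axis were called in both directions. The list of the insulin-like and epidermal growth factor axes and hepatocyte growth factor had 14 measured genes. Of these, 3 were called higher in brain and 4 lower, with a median of -0.25. Over all genes the shares were 7.85% and 8.2%. Igf1, the circulating growth factor made by liver under growth hormone, had 74.4, 62.5 and 85.8 in brain, against 4359.8, 3598 and 4212 in liver. These brain values were the lowest mean of the 9 tissues, and Igf1 was 54.9-fold lower in brain than in liver (log2 difference -5.78 ± 0.19 SE, limma adjusted p = 1.23e-17). Igfbp2, a binding protein of these factors, had 832, 648 and 680.3 in brain, against 3002, 3229 and 3145 in liver. Although 4.36-fold lower in brain than in liver (log2 difference -2.13 ± 0.11 SE, limma adjusted p = 9.29e-14), it was above the mean of the 7 other tissues in both, by 1.08 in brain and by 3.21 in liver on the log2 scale. Egfr, the epidermal growth factor receptor, had 136, 135 and 135 in brain, against 1035, 1659 and 1344 in liver. The brain arrays were nearly equal and under the human probe set median, and Egfr was 9.79-fold lower (log2 difference -3.29 ± 0.12 SE, limma adjusted p = 1.18e-16). Igfbp1 averaged 154 ± 27.9 in brain and 307 ± 40.2 in liver (SD, n = 3 each). Its 2.01-fold difference lay at the threshold on size, and the call was lost under quantile normalization, median centring, an added offset of 16 and array weights, and without brain replicate 2 or liver replicate 1.

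Called higher in brain than in liver among the insulin-like growth factor genes were the second ligand, the receptor and another binding protein. Igf2, the fetal growth factor that the choroid plexus and meninges still express in adults, had 1169, 1128 and 1095 in brain, against 498, 526 and 455 in liver, and was 2.30-fold higher in brain (log2 difference 1.20 ± 0.12 SE, limma adjusted p = 6.97e-09). Igfbp5 had 448, 476 and 568 in brain, against 149.9, 152 and 143 in liver, and was 3.34-fold higher (log2 difference 1.74 ± 0.19 SE, limma adjusted p = 3.9e-08). Igf1r, the receptor of both ligands, had 421, 577 and 615 in brain, against 222, 185 and 192 in liver. It was 2.66-fold higher (log2 difference 1.41 ± 0.23 SE, limma adjusted p = 1.15e-05), but its second probe set averaged 455 in brain and 379.7 in liver, a difference of 0.25, and the call was lost with the probe sets averaged. Among other growth factor receptors, Fgfr4, the hepatocyte receptor of the intestinal hormone Fgf15, averaged 160.4 ± 13.8 in brain and 359 ± 6.15 in liver (SD, n = 3 each) and was 2.24-fold lower in brain. Lifr, the receptor of leukemia inhibitory factor, had 88.5, 82.5 and 76.9 in brain, against 754, 1539 and 1389 in liver, a difference of -3.83 ± 0.19 (limma adjusted p = 3.99e-14). Its second probe set went the other way with low values, 179 in brain and 148 in liver, and with both averaged the difference was -1.82 and still called.

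A list of neurotrophic and heparin-binding factors and their receptors had 13 measured genes, of which 4 were called higher in brain and 0 lower, with a median of 0.45. The list also held Chga and Peg3, both called, which are neither neurotrophic nor heparin-binding factors. Only Ptn and Ntrk2 among the called genes bear out its name. The other 9 were not called, and their differences reached down to -0.23 for Gfra3, a receptor of the glial cell line-derived neurotrophic factor family. Gfra1, of the same family, differed by -0.21, but its second probe set averaged 61.3 in brain and 170 in liver, a difference of -1.46. Second probe sets of Gfra2, Gfra3 and Ntrk3 differed by 0.49, -0.03 and 0.04. For all genes the shares called were 7.85% higher and 8.2% lower. Ptn encodes pleiotrophin, a heparin-binding growth factor of neurons and glia. Its intensities were 1776, 1092 and 1482 in brain, against 126, 114 and 87.0 in liver. The lowest brain array exceeded the highest liver array several-fold, and Ptn was 13.2-fold higher in brain (log2 difference 3.72 ± 0.15 SE, limma adjusted p = 2.77e-16). Peg3, an imprinted zinc finger gene, had 580.1, 892 and 1036 in brain, against 145, 138 and 152 in liver. It was 5.60-fold higher (log2 difference 2.49 ± 0.18 SE, limma adjusted p = 2.98e-11), with liver under the human probe set median. Chga, chromogranin A of dense-core secretory granules, had 874, 790.1 and 893 in brain, against 314, 199.9 and 225 in liver, and was 3.52-fold higher (log2 difference 1.82 ± 0.12 SE, limma adjusted p = 6.21e-12). Ntrk2, the receptor of brain-derived neurotrophic factor, had 55.0, 125 and 142 in brain, against 49.5, 38.4 and 36.2 in liver. Brain replicate 1 was close to the liver arrays and all 6 values were under the human probe set median. Ntrk2 was 2.42-fold higher (log2 difference 1.27 ± 0.23 SE, limma adjusted p = 7.15e-05), and with a floor of 64 the difference was 0.70 and not called.

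Among 26 measured fibroblast growth factors and receptors, both genes called higher in brain encode intracellular homologous factors, which bind voltage-gated sodium channels. Their number was near the 7.85% of all genes called higher. Fgf12 had 513, 244 and 499 in brain, against 75.6, 80.8 and 68.2 in liver. Brain replicate 2 was lower than its fellows but above every liver array, and Fgf12 was 5.32-fold higher in brain (log2 difference 2.41 ± 0.20 SE, limma adjusted p = 5.69e-10). Fgf13 had 351, 377 and 505 in brain, against 196, 196 and 198 in liver, and was 2.06-fold higher (log2 difference 1.05 ± 0.11 SE, limma adjusted p = 2.13e-08). Its call was lost with an added offset of 16 and without brain replicate 3. Another homologous factor, Fgf14, differed by 0.29 ± 0.13 and was not called, while its other probe sets averaged 169.7 in brain and 117 in liver, and 278 in brain and 39.6 in liver. With all 3 averaged Fgf14 was called at 1.20, and the last of these, with a difference of 2.78, differed most. Phactr1, a regulator of protein phosphatase 1 and actin, had 2919, 2452 and 2419 in brain, against 449.5, 467 and 364 in liver, and was 6.10-fold higher (log2 difference 2.61 ± 0.23 SE, limma adjusted p = 1.53e-09). Tnfrsf19, a receptor of the tumour necrosis factor family, had 484, 292 and 544 in brain, against 109, 71.3 and 81.6 in liver, and was 4.94-fold higher (log2 difference 2.31 ± 0.23 SE, limma adjusted p = 6.71e-09). Kitl, stem cell factor, had 607, 591 and 615 in brain, against 175, 174 and 154 in liver, and was 3.61-fold higher (log2 difference 1.85 ± 0.16 SE, limma adjusted p = 1.02e-09).

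**Figure D2:**
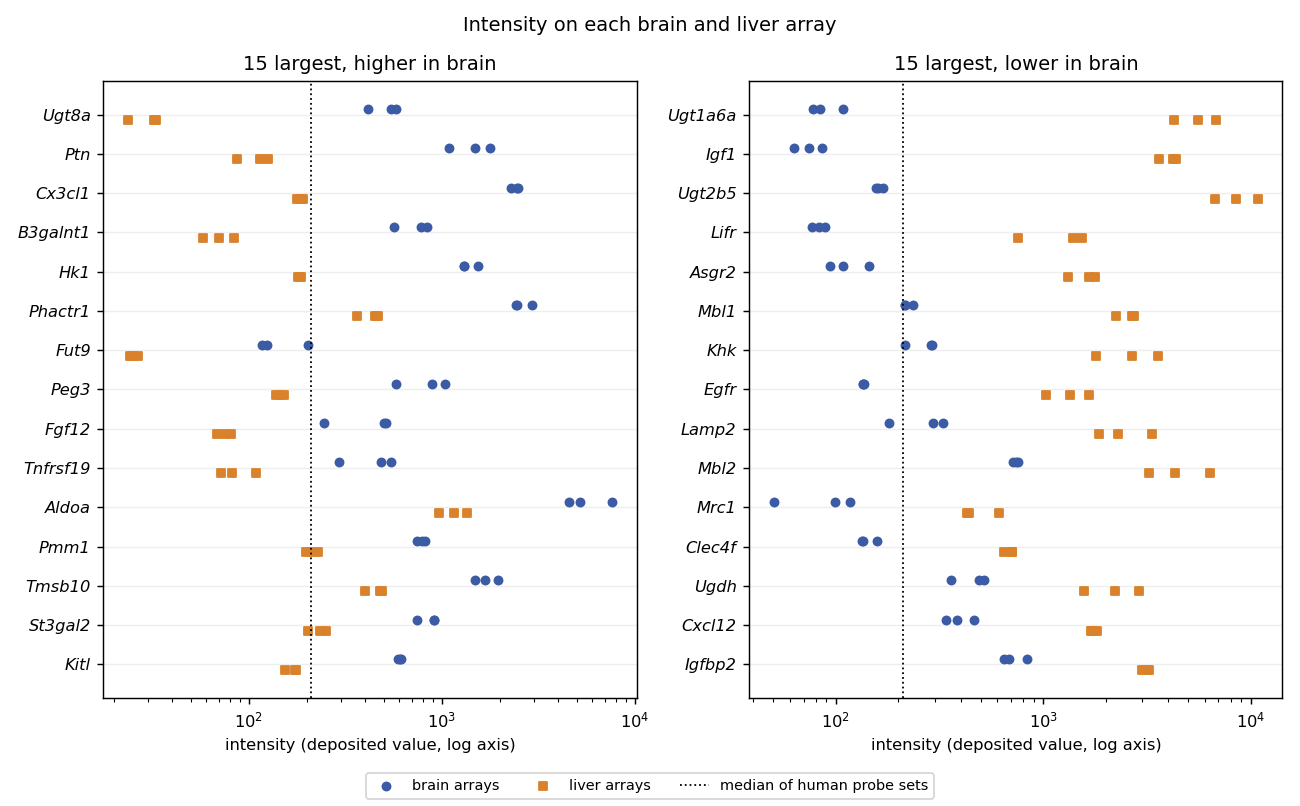
Intensity (log axis) on each of the 3 brain arrays (blue circles) and 3 liver arrays (orange squares) for the 15 called genes with the largest differences in each direction, largest at the top, with the human probe set median dotted. No gene's brain and liver arrays overlap. Most liver values on the left panel and most brain values on the right panel lie near or under the dotted line.

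The glycolipid synthases that were called were all higher in brain: Ugt8a, B3galnt1, St3gal2 and B4galt6. They come from 3 lists, with 1 of 3 measured genes called for galactosylceramide, 1 of 3 for globo glycolipids and 2 of 13 for gangliosides. Over all genes 7.85% were called higher, so that each small list rests on 1 gene. Ugt8a, which makes galactosylceramide, had 575, 414 and 544 in brain, against 32.2, 32.9 and 23.5 in liver. The liver values were far under the human probe set median, and Ugt8a was 17.3-fold higher in brain (log2 difference 4.11 ± 0.25 SE, limma adjusted p = 1.33e-12). That fold depends on how low values are treated: the difference was 2.98 with a floor of 64 and 3.53 with an added offset of 16. Its second probe set gave 4.23. B3galnt1, which adds N-acetylgalactosamine to make globoside, had 781, 561 and 836 in brain, against 69.7, 83.5 and 57.9 in liver. It was 10.3-fold higher (log2 difference 3.36 ± 0.20 SE, limma adjusted p = 1.33e-12), at once the highest of 9 tissue means in brain and the lowest in liver. The other measured genes of the globo and galactosylceramide lists, B3gnt5, B3galt5, Galc and Arsa, differed by -0.05 to 0.27 and were not called.

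Of 13 measured genes of ganglioside and lactosylceramide synthesis, 2 were called higher in brain and 0 lower, with a median of 0.24. Among all genes 7.85% were called higher and 8.2% lower. St3gal2, which sialylates the terminal galactose of complex gangliosides, had 906, 743 and 907 in brain, against 202, 233 and 251 in liver. It was 3.72-fold higher in brain (log2 difference 1.90 ± 0.17 SE, limma adjusted p = 1.65e-09). Its second probe set averaged 394.5 in brain and 216 in liver, a difference of 0.84. With both averaged the difference was 1.37 and still called. B4galt6, a lactosylceramide synthase, had 686, 759.7 and 802 in brain, against 338, 370.1 and 323 in liver. The arrays of each tissue lay close together, and B4galt6 was 2.18-fold higher (log2 difference 1.12 ± 0.10 SE, limma adjusted p = 2.47e-09). The other lactosylceramide synthase, B4galt5, averaged 451 ± 25.2 in brain and 470.2 ± 41.7 in liver (SD, n = 3 each), a difference of -0.06 ± 0.10 that was not called. The remaining members, among them the GM3 synthase St3gal5 and the GD3 synthase St8sia1, ran from -0.53 for B3galt4, the synthase of GM1 and GD1b, to 0.90 for St6galnac5, which sialylates gangliosides and passed on p but not on size. St8sia1 itself differed by -0.51 ± 0.09, and St6galnac5 was called under quantile normalization, at 1.31.

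Fucosyltransferases and sialyltransferases each had 1 or 2 members called. Of 11 measured fucosyltransferases, 2 were called higher in brain. Fut9, which completes the Lewis x epitope of neural precursor and neuronal glycans, had 124, 118 and 203 in brain, against 24.2, 26.5 and 25.0 in liver. All 6 values were under the human probe set median and the groups did not overlap, with a 5.70-fold difference (log2 difference 2.51 ± 0.26 SE, limma adjusted p = 1.91e-08) that was 1.17 with a floor of 64. Fut8, which adds the core fucose of N-glycans, had 578, 541 and 546 in brain, against 160.4, 166 and 157 in liver, and was 3.44-fold higher in brain (log2 difference 1.78 ± 0.17 SE, limma adjusted p = 6.71e-09). Of the 6 alpha2,3-sialyltransferases, St3gal2 was called, and of the 7 measured alpha2,6-sialyltransferases, 0 were called. St6gal1, which caps N-glycans of plasma proteins in liver, had 266, 192 and 272 in brain, against 537, 466 and 431 in liver. The arrays did not overlap and the difference of -0.98 ± 0.14 (limma adjusted p = 2.93e-06) fell just short of the threshold on size, and it was called under quantile normalization and without brain replicate 1, brain replicate 3 or liver replicate 3. Of the 5 measured alpha2,8-sialyltransferases, St8sia4 was called. This polysialyltransferase of the neural cell adhesion molecule had 251, 166 and 284 in brain, against 105, 102 and 81.0 in liver, and was 2.39-fold higher in brain (log2 difference 1.25 ± 0.18 SE, limma adjusted p = 2.98e-06), though brain was itself 2.17-fold below the mean of the 7 other tissues.

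Of 6 measured beta1,4-galactosyltransferases, 2 were called higher in brain and 1 lower. B4galt1, which builds most N-acetyllactosamine and, in the mammary gland, lactose, had 138, 87.9 and 136 in brain, against 447, 427 and 364 in liver. Brain was the lowest of the 9 tissues, and B4galt1 was 3.48-fold lower in brain than in liver (log2 difference -1.80 ± 0.18 SE, limma adjusted p = 1.38e-08). B4galt4, which favours sulfated N-acetylglucosamine as acceptor, had 281, 216 and 261 in brain, against 93.8, 93.6 and 97.3 in liver. It was 2.64-fold higher in brain (log2 difference 1.40 ± 0.15 SE, limma adjusted p = 2.1e-08), as B4galt6 was. The difference between members was not tested. Of 8 measured genes of N-glycan processing and branching, Fut8 was called higher and Man2a1 lower. Man2a1, the Golgi mannosidase that opens the way from hybrid to complex N-glycans, had 235, 223 and 269.9 in brain, against 886, 721 and 792 in liver, and was 3.30-fold lower in brain (log2 difference -1.72 ± 0.15 SE, limma adjusted p = 7.1e-10). Mgat3, whose bisecting N-acetylglucosamine is abundant on brain N-glycans, averaged 412 ± 71.6 in brain and 311 ± 11.8 in liver (SD, n = 3 each), a difference of 0.39 ± 0.11 that was not called. Of 11 measured beta1,3-galactosyl and N-acetylglucosaminyl transferases, 3 were called higher and 0 lower. Besides B3galnt1 they were B3galt1, a type 1 chain galactosyltransferase, with 277, 241 and 265 in brain, against 118, 134 and 134 in liver, and B4gat1. B4gat1 is by function a glucuronyltransferase that primes the laminin-binding glycan of dystroglycan. It had 1109, 1111 and 1101 in brain, against 480.2, 519 and 437 in liver, and was 2.32-fold higher (log2 difference 1.21 ± 0.14 SE, limma adjusted p = 1.35e-07). B3galt1 was 2.03-fold higher, and its call was lost with an added offset of 16 and without brain replicate 1 or liver replicate 1. B3galt2, of the same list, differed by -0.20 and was not called, but its second probe set averaged 231 in brain and 36.2 in liver, and it was called higher with both averaged. None of the 10 measured mucin O-glycan genes was called, with differences between -0.46 and 0.55. Ogt, which adds single N-acetylglucosamine residues to nuclear and cytosolic proteins and was chosen after its values were seen, had 1340.0, 1302 and 1185 in brain, against 614, 476 and 596 in liver, and was 2.28-fold higher in brain (log2 difference 1.19 ± 0.18 SE, limma adjusted p = 4.87e-06).

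Of 15 measured heparan sulfate genes, 3 were called higher in brain and 0 lower (median 0.19), where 7.85% and 8.2% of all genes were called. Extl2, an exostosin-like transferase of the linkage region, had 679.9, 577 and 690.1 in brain, against 240.2, 195 and 176 in liver, and was 3.20-fold higher in brain (log2 difference 1.68 ± 0.13 SE, limma adjusted p = 1.89e-10). Hs3st1, which adds the 3-O-sulfate of the antithrombin-binding site, had 493, 394 and 474 in brain, against 159, 139 and 167 in liver, and was 2.92-fold higher (log2 difference 1.55 ± 0.14 SE, limma adjusted p = 3.15e-09). Hs6st2, a 6-O-sulfotransferase, had 189, 140.0 and 185 in brain, against 63.3, 66.0 and 50.4 in liver. All 6 values lay under the human probe set median, and Hs6st2 was 2.85-fold higher (log2 difference 1.51 ± 0.17 SE, limma adjusted p = 7.14e-08). Hs2st1, the 2-O-sulfotransferase, differed by 0.40 and was not called, while its second probe set averaged 756 in brain and 210.4 in liver, a difference of 1.83, and it was called higher with both averaged. None of the 8 measured chondroitin and dermatan sulfate genes was called. Of 5 measured N-acetylglucosamine and galactose sulfotransferases, 1 was called higher in brain and 1 lower. Chst2 had 543, 588 and 633 in brain, against 227, 244 and 243 in liver, and was 2.47-fold higher in brain (log2 difference 1.30 ± 0.13 SE, limma adjusted p = 5.38e-09). Chst5, a member found in intestine and cornea, had 258, 215 and 229 in brain, against 558, 489.6 and 439 in liver, and was 2.11-fold lower in brain (log2 difference -1.08 ± 0.16 SE, limma adjusted p = 6.18e-06), a call that was lost without liver replicate 1.

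Of 22 measured proteoglycan core proteins, 2 were called higher in brain and 2 lower, near the 7.85% and 8.2% of all genes. Dcn, decorin, a small leucine-rich proteoglycan that binds collagen, had 689, 594 and 603 in brain, against 2539.6, 2479.5 and 2729 in liver, and was 4.11-fold lower in brain (log2 difference -2.04 ± 0.21 SE, limma adjusted p = 1.73e-08). Bgn, biglycan, of the same family, had 422, 277 and 401 in brain, against 1043, 1042 and 1363 in liver, and was 3.16-fold lower (log2 difference -1.66 ± 0.20 SE, limma adjusted p = 2.13e-07). Fmod, fibromodulin, is a relative of both. It had 384, 279 and 389.6 in brain, against 132, 127 and 143 in liver, and was 2.59-fold higher in brain (log2 difference 1.37 ± 0.16 SE, limma adjusted p = 9.62e-08). Gpc1, glypican-1, a membrane-anchored heparan sulfate proteoglycan, averaged 666 ± 85.8 in brain and 331 ± 18.6 in liver (SD, n = 3 each). Its 2.01-fold difference lay at the threshold on size, and the call was lost with an added offset of 16 and without brain replicate 3, liver replicate 2 or liver replicate 3. Ncan and Bcan, the neurocan and brevican cores of the brain matrix, differed by 0.65 ± 0.09 and 0.49 ± 0.16. Both passed on p and not on size.

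Of 28 measured genes of nucleotide sugar synthesis and transport, 3 were called higher in brain, 5 lower and 20 not, with a median of -0.12. Shares over all genes were 7.85% higher and 8.2% lower. Hk1, Pmm1 and Papss1 were higher. Hk1, the hexokinase of brain and red cells, had 1299, 1298 and 1543 in brain, against 179, 186 and 183 in liver. All liver values lay under the human probe set median and were the lowest of the 9 tissues. Hk1 was 7.53-fold higher in brain (log2 difference 2.91 ± 0.50 SE, limma adjusted p = 3.48e-05), and the difference was 3.55 under quantile normalization and 3.63 with its probe sets averaged. Pmm1, a phosphomannomutase on the way to GDP-mannose, had 819.5, 747 and 793 in brain, against 227, 197 and 209 in liver, and was 3.73-fold higher (log2 difference 1.90 ± 0.14 SE, limma adjusted p = 5.61e-11). On the lower side, besides Ugdh and Ugp2, stood Gne, which commits UDP-N-acetylglucosamine to sialic acid. It had 239, 201 and 257 in brain, against 639.5, 620.0 and 665 in liver, and was 2.78-fold lower in brain (log2 difference -1.47 ± 0.11 SE, limma adjusted p = 1.14e-10). Gnpnat1, which acetylates glucosamine phosphate, had 228, 198 and 216 in brain, against 494, 442 and 391 in liver. It was 2.06-fold lower, and the call was lost with an added offset of 16 or array weights, and without brain replicate 2 or liver replicate 1.

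The synthases of the sulfate donor PAPS went opposite ways. Papss1 had 1134, 886 and 1147 in brain, against 403, 291 and 342 in liver, and was 3.06-fold higher in brain (log2 difference 1.61 ± 0.13 SE, limma adjusted p = 3.51e-10). Papss2 had 199, 229 and 202 in brain, against 639.8, 500.1 and 966 in liver. The liver arrays spread more than the brain arrays without overlap, and Papss2 was 3.23-fold lower in brain (log2 difference -1.69 ± 0.20 SE, limma adjusted p = 1.07e-07). Kidney had the highest mean of the 9 tissues for both. A glycolytic gene on the array, Aldoa, the muscle-type aldolase, had 7645, 4564 and 5209 in brain, against 1348, 968 and 1159 in liver, and was 4.93-fold higher in brain (log2 difference 2.30 ± 0.34 SE, limma adjusted p = 4.66e-06). Pgm1, a phosphoglucomutase chosen after its values were seen, had 725, 576 and 686 in brain, against 1773, 1333 and 1699.6 in liver, and was 2.41-fold lower (log2 difference -1.27 ± 0.19 SE, limma adjusted p = 5.48e-06).

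**Figure D3:**
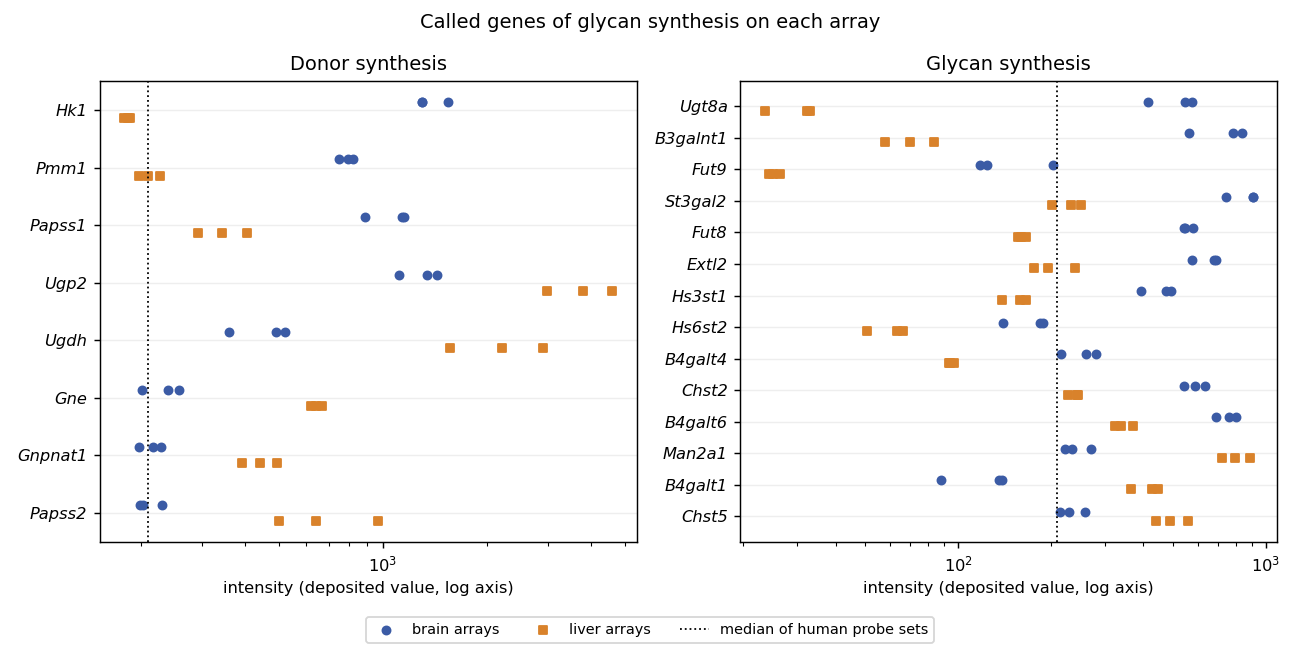
Intensity (log axis) on each brain array (blue circles) and liver array (orange squares) of called genes that make sugar and sulfate donors (left panel) and glycans (right panel), with the human probe set median dotted. Hk1, Pmm1 and Papss1 lie to the right in brain and the other 5 donor genes in liver. In the glycan panel 11 genes lie to the right in brain, while Man2a1, B4galt1 and Chst5 lie to the right in liver.

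Of 20 measured genes of lysosomal glycan degradation, 0 were called higher and 4 lower in brain, where 7.85% and 8.2% of all genes were called, and the list's median of -0.03 equalled that of all genes. Ids, iduronate 2-sulfatase, differed by 0.16 and was not called, but its other probe sets differed by 1.23 and 2.44, and it was called higher with all 3 averaged. Aga, which cleaves the asparagine linkage of N-glycans, had 112, 41.6 and 117 in brain, against 308, 199.9 and 211 in liver. Brain replicate 2 was well below the other brain arrays, and Aga was 2.87-fold lower in brain (log2 difference -1.52 ± 0.27 SE, limma adjusted p = 5.14e-05). Man2b1, lysosomal alpha-mannosidase, had 472, 328 and 460.5 in brain, against 1108, 873 and 954 in liver, and was 2.35-fold lower (log2 difference -1.23 ± 0.17 SE, limma adjusted p = 1.22e-06). Gusb, beta-glucuronidase, had 267, 193 and 225 in brain, against 589, 473 and 533 in liver, and was 2.34-fold lower (log2 difference -1.22 ± 0.14 SE, limma adjusted p = 8.23e-08). Gm2a, the activator protein of ganglioside GM2 breakdown, averaged 441 ± 61.9 in brain and 904 ± 91.8 in liver (SD, n = 3 each). It was 2.06-fold lower, and the call was lost with array weights and without brain replicate 2 or liver replicate 2. All 4 genes were also called below the mean of the 7 other tissues in brain, and none of the 4 was called against it in liver. Lamp2, a heavily glycosylated protein of the lysosomal membrane, had 328, 179.6 and 294 in brain, against 3352, 1862 and 2297 in liver, and was 9.39-fold lower in brain (log2 difference -3.23 ± 0.25 SE, limma adjusted p = 1.77e-10). Lipa, lysosomal acid lipase, was chosen after its values were seen. It had 497, 408 and 491 in brain, against 1914, 1509 and 1735 in liver, and was 3.69-fold lower (log2 difference -1.88 ± 0.16 SE, limma adjusted p = 5.42e-10).

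Of 29 measured chemokines, 3 were called higher in brain and 3 lower (median -0.24), near the 7.85% and 8.2% of all genes. Cx3cl1, fractalkine, is a membrane-bound chemokine of neurons. It had 2280.1, 2453 and 2487 in brain, against 191, 187 and 178 in liver. The brain arrays were tightly grouped and far above liver, and Cx3cl1 was 13.0-fold higher in brain (log2 difference 3.70 ± 0.09 SE, limma adjusted p = 5.19e-20), with 4.34 under quantile normalization. Its receptor Cx3cr1, a marker of microglia, had 499, 529 and 575 in brain, against 359, 303 and 311 in liver. The arrays did not overlap, and its difference of 0.72 ± 0.10 (limma adjusted p = 2.85e-06) was under the threshold on size. Ccl27a had 1005, 903 and 1007 in brain, against 346, 266 and 282 in liver, and was 3.28-fold higher (log2 difference 1.71 ± 0.17 SE, limma adjusted p = 5.38e-09). Near-identical copies of Ccl27a exist in the mouse, so that its probe set may bind more than 1 gene. Cxcl14 had 954, 646 and 750.1 in brain, against 269, 303 and 280.1 in liver, and was 2.73-fold higher (log2 difference 1.45 ± 0.15 SE, limma adjusted p = 1.38e-08). On the lower side, Cxcl12, the homing factor of stromal niches, had 464, 341 and 384 in brain, against 1816, 1705 and 1726 in liver, and was 4.45-fold lower in brain (log2 difference -2.15 ± 0.20 SE, limma adjusted p = 4.18e-09). Ccl9, a myeloid chemokine, had 101, 100.5 and 94.6 in brain, against 413, 296 and 349 in liver, and was 3.54-fold lower (log2 difference -1.82 ± 0.16 SE, limma adjusted p = 1.32e-09). Cxcl9, an interferon-induced T cell attractant, averaged 105 ± 12.9 in brain and 219 ± 33.6 in liver (SD, n = 3 each), and its call was lost with an added offset of 16 or array weights, and without brain replicate 2 or liver replicate 1. Of 16 measured chemokine receptors, Ccr6 was called, with 104, 155 and 117 in brain, against 301, 278 and 239 in liver (log2 difference -1.14 ± 0.13 SE, limma adjusted p = 1.39e-07). Of 35 interleukins and their receptors, Lifr was the 1 called.

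Adhesion genes are given list by list, where 7.85% of all genes were called higher in brain and 8.2% lower. Itgb1, the integrin beta chain shared by collagen, laminin and fibronectin receptors, had 621, 441 and 562 in brain, against 1539.5, 1266 and 1353 in liver. It was 2.58-fold lower in brain (log2 difference -1.37 ± 0.19 SE, limma adjusted p = 1.2e-06) and was the 1 call among 16 measured integrins. Lgals8, a tandem-repeat galectin, had 646, 554 and 587 in brain, against 1643, 1249.9 and 1666 in liver, and was 2.53-fold lower (log2 difference -1.34 ± 0.16 SE, limma adjusted p = 1.23e-07), the 1 call among 4 measured galectins. Its second probe set averaged 160 in brain and 281 in liver, a difference of -0.83. With both averaged the Lgals8 difference was -1.09 and still called. Cd34, a sialomucin of endothelium, had 318, 206 and 312 in brain, against 82.7, 79.9 and 82.0 in liver. Liver was the lowest of the 9 tissues, and Cd34 was 3.35-fold higher in brain (log2 difference 1.75 ± 0.18 SE, limma adjusted p = 1.72e-08), the 1 call among 6 selectins and selectin ligand carriers. Of 6 measured siglecs, Cd22, a sialic acid-binding receptor of B cells, was called higher, with 4056, 4093 and 4804 in brain, against 2286, 1896 and 2078 in liver (log2 difference 1.05 ± 0.20 SE, limma adjusted p = 0.000128). Against the 7 other tissues, Cd22 differed by -0.02 in brain, which was not called, and by -1.07 in liver, which was called lower. Brain stood at rank 6 of the 9 tissues, and spleen had the highest mean, 5397. The second probe set of Cd22 averaged 81.4 in brain and 69.7 in liver, and the call was lost with probe sets averaged and without brain replicate 3 or liver replicate 2. Mag, the siglec of myelin, had 933, 857 and 1001 in brain, against 604, 522 and 583 in liver. Its difference of 0.71 ± 0.10 was under the threshold on size, while its second probe set averaged 1213 in brain and 253 in liver, and with both averaged the difference was 1.49 and called. None of the 22 Wnt and Frizzled genes and none of the 13 vascular genes was called. Of 30 genes of the TGF-beta superfamily, Gdf1 was called higher and Amh lower. Amh, anti-Müllerian hormone, had 277, 248 and 275 in brain, against 691, 705 and 778 in liver, and was 2.72-fold lower in brain (log2 difference -1.44 ± 0.10 SE, limma adjusted p = 2.05e-11). Gdf1, which shares a transcript with the ceramide synthase gene Cers1, averaged 898 ± 38.6 in brain and 451 ± 123 in liver (SD, n = 3 each), and its second probe set averaged 1115 in brain and 185 in liver. The Gdf1 difference of 1.03 was 1.81 with both averaged, and the call was lost with an added offset of 16 and without brain replicate 2, liver replicate 1 or liver replicate 3.

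**Figure D4:**
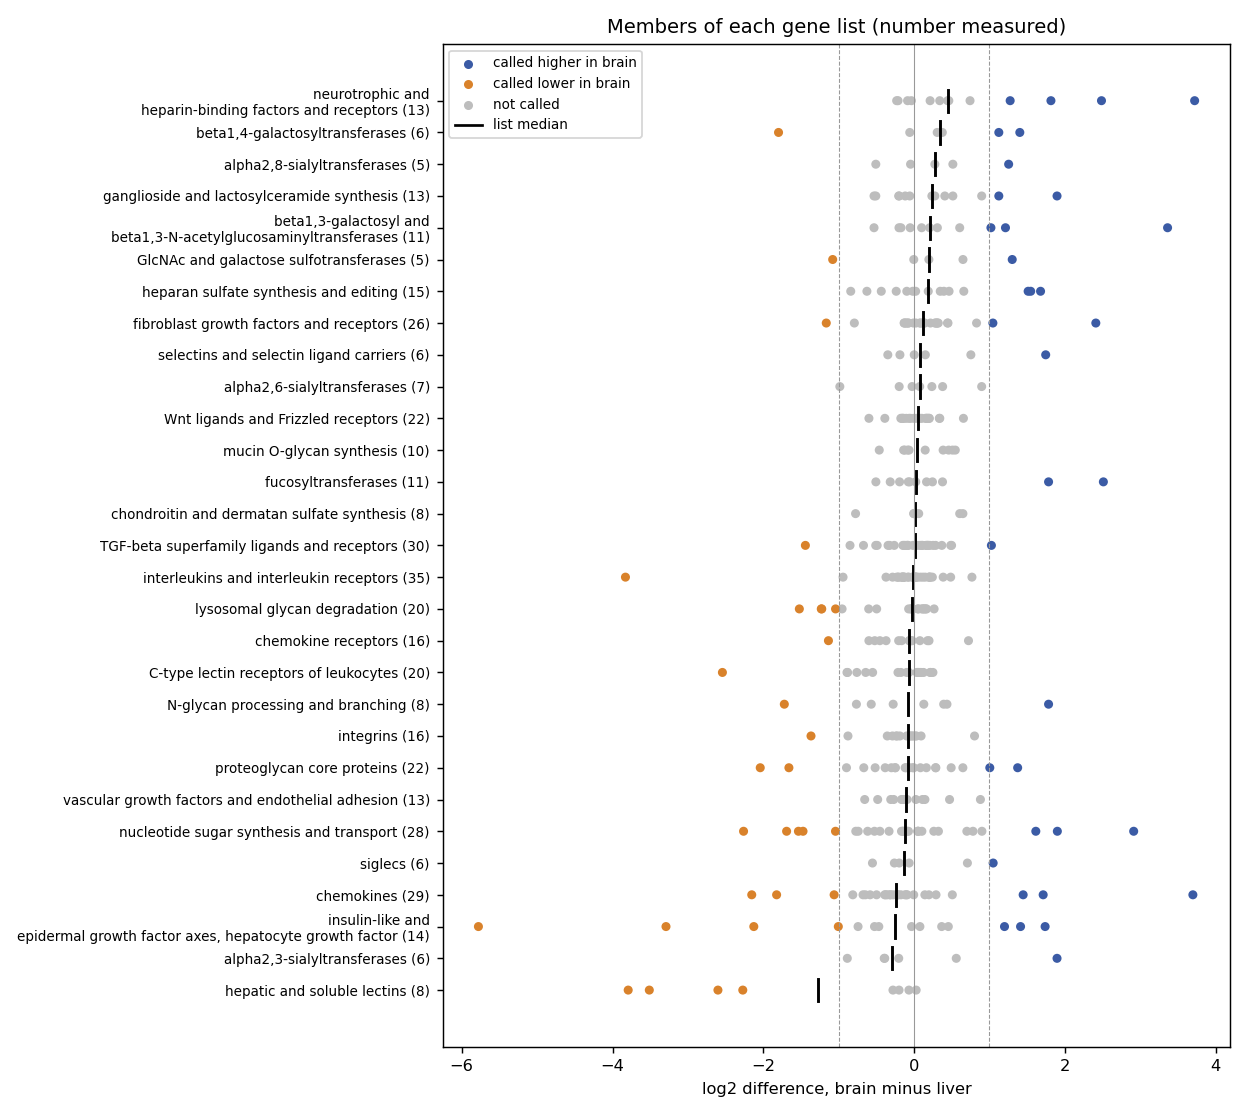
Log2 difference, brain minus liver, of each measured member of the function lists with at least 5 measured members, ordered by list median (black bars). Blue points were called higher in brain, orange points called lower and grey points not called, with dashed lines at the threshold of 1. The list medians run from 0.45 for the neurotrophic and heparin-binding list, which also holds Chga and Peg3, to -1.28 for hepatic and soluble lectins.

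Each called marker of neurons, oligodendrocytes and hepatocytes was higher in its own tissue, while other markers of these cells were not called. Over all genes, 7.85% were called higher in brain and 8.2% lower. The marker lists were chosen with earlier results of these data known. Of 11 measured neuron markers, 5 were called higher in brain and 0 lower. The summed intensity of all 11 was 6439 to 7076 over the brain arrays, against 2899 to 2958 over the liver arrays. Cx3cl1 alone gave 2280 to 2487 of this sum in brain and 178 to 191 in liver. The other neuron markers, St8sia3, Fgf14, Ntrk3, Ncan, Gfra2 and Sdc3, were not called, with differences from -0.25 to 0.65. Ugt8a was the called 1 of the 2 measured markers of oligodendrocytes, and the astrocyte markers Bcan and Fgfr3 were not called. Nor were Cx3cr1 for microglia and Itgb4 for cholangiocytes and epithelium. Of 5 measured endothelial markers, Cd34 was called higher in brain. Of 7 measured hepatocyte markers, 5 were called lower in brain (Asgr2, Mbl1, Mbl2, Ugt2b5 and Igfbp1), with sums of 1837 to 1867 over the brain arrays, against 14971 to 20286 over the liver arrays. The other hepatocyte markers, Inhbc and Inhbe, differed by -0.85 and -0.33. Markers of Kupffer cells (Clec4f), sinusoidal endothelium (Mrc1) and stellate cells (Dcn, 1 of 2 measured) were lower in brain. Each of these cell types rests on 1 called gene. Mrc1 and Dcn were called below the 7 other tissues in brain and were not called above them in liver. Of the markers of blood-borne cells, 0 of 4 for T cells, 0 of 6 for neutrophils and 0 of 3 for platelets were called. Of 4 macrophage and monocyte markers, Mrc1 was called lower, with a list median of -0.71 and sums of 173 to 386 over the brain arrays, against 717 to 946 over the liver arrays. The neutrophil markers summed to 2131 to 2642 over the brain arrays, against 2186 to 2407 over the liver arrays. Of 4 B cell markers, Cd22 was called, and Cd72, Fcer2a and Cxcr5 differed by 0.06, -0.17 and -0.026. The 4 markers summed to 4542 to 5217 over the brain arrays, against 2362 to 2792 over the liver arrays. Cd22 alone gave 4056 to 4804 of this sum in brain and 1896 to 2286 in liver. Against the 7 other tissues it differed by -0.02 in brain and -1.07 in liver. Its second probe set averaged 81.4 in brain and 69.7 in liver, and its call was lost with probe sets averaged. The part of residual blood in these values was not tested.

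A difference between brain and liver can arise on either side, and the 7 other tissues show on which side a level stood apart. Against their mean, 27 genes were called higher in brain (4.71%) and 67 lower (11.7%), and 26 were called higher in liver (4.54%) and 51 lower (8.9%). Quantile normalization gave 40 higher and 58 lower for brain. Both contrasts use the same 21 arrays of the other tissues, and each shares its own arrays with the comparison of brain with liver, so that the splits below are descriptions. Of the 45 genes higher in brain than in liver, 22 were called above the others in brain alone, 11 were called below the others in liver alone, 2 were called above them in brain and below them in liver, 2 were called below them in both tissues and 8 in neither. Ptn, Cx3cl1 and Ugt8a belonged to the first kind, at 3.43, 3.29 and 3.41 in brain and -0.29, -0.41 and -0.70 in liver relative to the other tissues. Fut8, Cd34 and Igfbp5 belonged to the second, at 0.41, 0.033 and 0.20 in brain and -1.38, -1.71 and -1.54 in liver. B3galnt1 and Hk1 were called above the others in brain and below them in liver. Brain had the highest mean of the 9 tissues in 22 of the 45 genes, and liver the lowest in 16.

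Of the 47 genes lower in brain than in liver, 16 were called below the others in brain alone, 18 were called above the others in liver alone, 3 were called below them in brain and above them in liver, 3 were called the same way in both tissues and 7 in neither. Liver had the highest mean of the 9 tissues in 24 of them, and brain the lowest in 18. Asgr2, Mbl1, Mbl2, Clec4f, Ugt2b5 and Egfr were called on the liver side. Mrc1, B4galt1, Cxcl12, Bgn and Dcn were called on the brain side, at -2.26 for Mrc1 and -2.09 for B4galt1. Igf1, Ugt1a6a and Lamp2 were called on both. The genes called the same way in both tissues were Tmsb10, St8sia4, Cd74, Igfbp2 and Msmo1. Tmsb10, thymosin beta 10, an actin-binding peptide, had 1959, 1486 and 1665 in brain, against 401, 492 and 476 in liver. It was 3.72-fold higher in brain than in liver (log2 difference 1.90 ± 0.18 SE, limma adjusted p = 5.31e-09) and yet below the other tissues by -1.28 in brain and -3.18 in liver. St8sia4 had the same arrangement, at -1.12 in brain and -2.37 in liver. Cd74, the invariant chain of class II antigen presentation, was chosen after its values were seen. It averaged 184 ± 61.9 in brain and 362 ± 25.4 in liver (SD, n = 3 each) and was below the other tissues by -3.45 in brain and -2.43 in liver. Its difference of -1.03 between brain and liver lost its call under 5 of the settings, among them median centring.

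**Figure D5:**
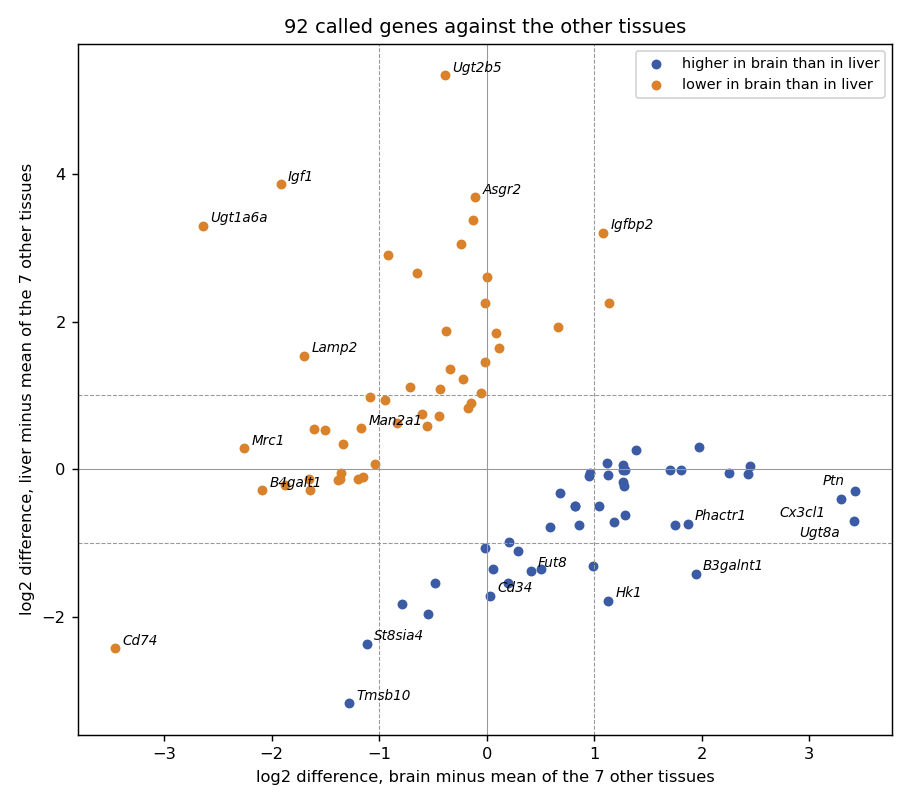
Each of the 92 called genes by its log2 difference from the mean of the 7 other tissues, in brain (horizontal) and in liver (vertical), blue for genes higher in brain than in liver and orange for genes lower, with dashed lines at the threshold of 1. Ptn, Cx3cl1 and Ugt8a lie far to the right near the horizontal axis, Ugt2b5 and Asgr2 lie high near the vertical axis, and Tmsb10, St8sia4 and Cd74 lie below and to the left.

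The levels behind the calls differed. Of the 45 genes higher in brain, 28 had a brain mean above the 95th percentile of the human probe sets and 24 had a liver mean under their median. Of the 47 lower in brain, 33 had a liver mean above that percentile and 20 had a brain mean under the median. Both means lay under the percentile for 17 of the genes higher in brain and for 14 of the genes lower. By the same threshold, 11 of the 839 human probe sets (1.31%) and 6 of the 213 probe sets without a gene name (2.82%) were called between brain and liver. Of the 92 called genes, 21 had further probe sets, and Lifr was the 1 with a probe set of opposite sign. The 5 genes with the smallest differences among those above the median level were Chst3, Cxcl15, Gpc2, Madcam1 and Pcbp1. Madcam1, the gut homing addressin, had 288, 324 and 332 in brain, against 313, 302 and 326 in liver, with a 95% interval of the log2 difference of -0.20 to 0.20. For Chst3, the chondroitin 6-O-sulfotransferase, the interval was -0.44 to 0.43, so that differences within it remain compatible with these values.

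Further called genes fell outside the rule for naming and were chosen after their values were seen. Mst1, macrophage-stimulating protein, which liver secretes into plasma, had 206, 235 and 203 in brain, against 782, 681 and 724 in liver, and was 3.40-fold lower in brain (log2 difference -1.76 ± 0.09 SE, limma adjusted p = 9.95e-14). Ltbr, the lymphotoxin beta receptor, had 119, 179 and 136 in brain, against 657, 578 and 560.0 in liver, and was 4.18-fold lower (log2 difference -2.06 ± 0.18 SE, limma adjusted p = 1.65e-09). S100a10, the annexin 2 partner, had 724, 572 and 651 in brain, against 2576, 1668 and 2059.7 in liver, and was 3.20-fold lower (log2 difference -1.68 ± 0.17 SE, limma adjusted p = 1.84e-08). Col14a1, a fibril-associated collagen, and Fas, the death receptor, were 2.74-fold and 2.45-fold lower. Msmo1, an enzyme of cholesterol synthesis, was 2.17-fold lower in brain than in liver but above the 7 other tissues in both, by 1.14 in brain and by 2.26 in liver. Nubp1 was 2.16-fold lower, and Sod1, the cytosolic superoxide dismutase, 2.89-fold lower. The calls of Msmo1 and Sod1 were lost under quantile normalization, and that of Msmo1 also without liver replicate 1. Cd83, a marker of mature dendritic cells, was 2.68-fold higher in brain, where liver had the lowest mean of the 9 tissues. Zmat2, Tsnax, Smc3 and Hmgn2 were 2.50-fold, 2.49-fold, 2.09-fold and 2.06-fold higher in brain, and each had its lowest tissue mean in liver. The call of Smc3 was lost without liver replicate 2, and that of Hmgn2 without brain replicate 1, liver replicate 2 or liver replicate 3.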

How the data were processed

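Transcripts of brain and liver were measured on 3 arrays each, per the labels. The authors deposited linear intensities of 1813 probe sets on 27 arrays. How they summarised probes, corrected background and scaled arrays is not given in the sources used here. In the platform annotation there were 702 probe sets of mouse genes, 839 human probe sets, 57 controls, 213 unnamed probe sets and 2 with several genes. Each of 573 mouse genes was represented by its brightest probe set on average over the 27 arrays (122 genes had several), and RefSeq (GRCm38.p6) updated 1 symbol.

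Values were floored at 16 (2 values) and log2 transformed. limma 3.58.1 in R 4.3.3 fitted 1 coefficient per tissue over all 27 arrays. Contrasts were brain minus liver and each against the mean of the 7 other tissues, with Benjamini-Hochberg adjustment over 573 genes. Genes were called at an adjusted p under 0.05 and a log2 difference of at least 1. Named genes were the 15 largest called differences in each direction, up to 5 called members in each direction of each function list, all members of lists with 8 or fewer measured and of the marker lists, and the 5 smallest differences above the median level. The members and the 37 function and 15 marker lists were chosen with earlier results of these data known. The script was tested on simulated data. The title numbers gave correlations of 0.190, 0.120 and -0.044 between same-numbered brain and liver arrays and were not taken as pairs. Promoter windows came from RefSeq. Alternatives tried were 2 other scalings, a filter on dim genes, another floor, an offset, averaged probe sets, other variance settings, array weights, both tissues alone, a replicate block and leaving out each array.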

Additional observations from a re-analysis of the deposited data

How the results depend on the processing

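Over 16 settings, 75 of the 92 called genes kept their call, 36 higher and 39 lower in brain, and no called gene reversed. Leaving out the lowest tertile of genes by mean was considered apart, since 28 called genes were then not tested; it gave 29 genes higher in brain than in liver, and 16 higher in brain than in the 7 other tissues. Leaving out each array in turn gave 41 to 45 genes higher in brain than in liver and 41 to 51 lower. Against the 7 other tissues it gave 27 to 30 higher and 62 to 67 lower for brain, and 23 to 29 higher and 51 to 60 lower for liver. The genes that lost their call in at least 1 setting were Igfbp1, Cd74, Cxcl9, Gdf1, Gnpnat1, Gpc1, Gm2a, B3galt1, Fgf13, Chst5, Hmgn2, Smc3, Msmo1, Cd22, Igf1r, Ntrk2 and Sod1; the cause was not tested. In turn 24 genes that were not called gained a call in at least 1 setting, with 10 under quantile normalization (Chst1, Cmas, Hyal2, Il1a, Manba, Pigq, Smpd1, St6gal1, St6galnac5 and Vegfb), 6 with probe sets averaged (B3galt2, Fgf14, Hs2st1, Ids, Mag and Tnfrsf1b), 3 with array weights and 0 to 5 on leaving out an array. Hyal2, Il1a and St6gal1 gained it in 4 settings each. With the title number as a replicate block, 45 genes were higher and 47 lower, over all arrays and over brain and liver alone, and no call changed. Numbers 1 and 2 correlated best with their own number and number 3 did not, which is a hint from the data and not from the design. Cd72, which was not called, turned to -0.53 without brain replicate 1, the highest of its brain values. The scalings moved the median of all genes by at most 0.03. The deposited values carry no detection calls, and signal over the human probe sets limits what low levels can show.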

Other observations

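Human probe sets on the array showed few differences between the mouse tissues, with 5 of 839 higher in brain and 6 lower (1.31%). The probe set for IGF1 averaged 160 ± 4.84 in brain and 2161 ± 102 in liver (SD, n = 3 each), a log2 difference of -3.75, in the direction of mouse Igf1. Both human probe sets for LGALS9, a galectin whose mouse gene is not among the 573 genes, were lower in brain. They averaged 182 ± 11.9 and 185 ± 4.81 in brain and 1389 ± 313 and 1483 ± 291 in liver, with differences of -2.91 and -2.99. TMSB10 (2.06), ALDOA (1.35) and CXCL14 (1.34) were higher in brain, as were their mouse counterparts. ITGA6 (1.63) and FZD2 (1.23) were also higher in brain, while mouse Itga6 and Fzd2 differed by 0.80 and 0.65 and were not called. B3GAT3 (-1.01) and HS2ST1 (-1.69) were lower in brain on the human probe sets, while the brightest mouse probe sets of B3gat3 and Hs2st1 differed by 0.65 and 0.40 and were not called. A second mouse probe set of Hs2st1 was 756 in brain and 210.4 in liver on average, a difference of 1.83. What these probe sets bind in mouse RNA was not tested.

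Among 213 probe sets without a gene name, 1 was higher in brain and 5 lower (2.82%). A pair of them were among the deepest differences of the array, averaging 80.4 ± 9.58 and 65.0 ± 15.6 in brain and 3207 ± 833 and 3686 ± 1168 in liver, with log2 differences of -5.29 and -5.80.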
